A study of Drosophila melanogaster with 8 samples.

Results

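Peaks of RNase H1 contact were described on the euchromatin of the X chromosome in wing imaginal discs, the larval precursors of the wing, dissected from third-instar larvae of *Drosophila melanogaster*. A peak belonged to the set when it lay on X with its midpoint at or below position 21500000. That gave 1721 peaks in ecd1 discs and 1520 in control discs, 3241 in all, out of 9559 ecd1 and 8597 control peaks, 18156 in all. In the ecd1 list the last peak inside the limit lay at X:21404604-21405664 with a height of 0.61, and the first one outside at X:21516022-21517694 with a height of 0.58. In the control list they lay at X:21458361-21459676 with a height of 1.05 and at X:21518047-21519670 with a height of 0.84. Beyond the limit, X held 68 ecd1 and 76 control peaks. All coordinates are those of the BDGP6 build.

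The study set ecd1 mutant larvae against control larvae. In both, *nub*-Gal4 drove either a fusion of DNA adenine methylase (Dam) with RNase H1 or Dam alone in the wing pouch, and tub-Gal80ts kept the driver off until the shift to 29 °C. Larvae grew at 25 °C, spent 24 h at 29 °C from day 6 on and were dissected on day 7 after egg laying. The shift switched the Dam constructs on and inactivated the temperature-sensitive ecd1 protein at the same time. The control larvae carried the same constructs and had the same heat, and only cells in which the driver is active contributed signal. The groups were ecd1 Dam-RNase H1 (3 libraries), ecd1 Dam-only (1 library), control Dam-RNase H1 (3 libraries) and control Dam-only (1 library), 8 in all. For the ecd1 Dam-only library the labels disagree: title and genotype name Dam alone, and its description names Dam-RNase H1. The sex of the larvae is not given in the sources used here. The files hold 1 peak list per genotype and no value of a single library. No replicate error or depth can therefore be given, and every interval below is a 95% Wilson interval, or an order-statistic interval for a median, that covers counting error over peaks or genes only.

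In Targeted DamID, Dam methylates adenines in GATC sites near the place where its fusion partner touches chromatin, and the methylated fragments are amplified and sequenced. RNase H1 cuts the RNA strand of RNA:DNA hybrids, which form mostly where a new transcript pairs back with its template, so its contacts are read as places where such hybrids can arise. The X of flies is present once in males and in a pair in females. In males the MSL complex, which carries the histone acetyltransferase Mof and the non-coding RNAs roX1 and roX2, raises transcription along X, and Sxl, the switch gene of sex determination, keeps the complex off in females. The *ecd* gene is known for its role in ecdysone synthesis and in pre-mRNA splicing.

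X carried 80.0 ecd1 peaks per Mb and 70.7 control peaks per Mb over 21.5 Mb. The autosomal arms taken whole had fewer in each genotype. Arm 2L had 70.0 ecd1 and 66.0 control peaks per Mb, 3L had 70.5 and 63.6, and 3R had 69.1 and 60.1. The whole autosomal arms include gene-poor sequence beside the centromeres, which the X limit leaves out. Without it (2L and 3L up to 22 Mb, 3R from 5 Mb on), 2L had 72.9 ecd1 and 68.4 control peaks per Mb, 3L had 83.1 and 74.5, and 3R had 77.2 and 66.6, so X lay between them. The ratio of X to the 3 autosomal arms together was 1.15 (1.09 to 1.21) for ecd1 and 1.12 (1.06 to 1.19) for control with whole arms, but 1.03 for ecd1 and 1.02 for control with trimmed arms.

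Peaks covered 14% of X in ecd1 discs (3.02 Mb) and 13.5% in control discs (2.90 Mb). On the whole autosomal arms the ecd1 peaks covered between 12.7% and 13.3% and the control peaks between 12.5% and 13.9%. On the trimmed arms 2L, 3L and 3R they covered 13.2%, 15.9% and 14.3% in ecd1 and 14.5%, 16.3% and 14.1% in control, so X then lay below 3L and 3R in ecd1 and below all 3 in control. The surplus of ecd1 over control peaks on X therefore came with almost equal covered length. It also depended on the false discovery rate (FDR) that the authors gave each peak, which lay under 0.01 throughout. At an FDR under 0.001 the X kept 982 ecd1 and 1033 control peaks, 0.951 ecd1 peaks for each control peak, against 1.13 in the full lists. The order turned on 3R as well, at 1284 ecd1 and 1403 control peaks, and did not on 2L, at 964 ecd1 and 890 control peaks, or on 3L, at 1187 and 1111.

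Relative to genes, X was the densest of the arms compared. It held 2599 annotated genes, 121 per Mb, against 150 on 2L, 124 on 3L and 132 on 3R taken whole. The trimmed arms 2L, 3L and 3R held 157, 150 and 151 genes per Mb, so X was poorer in genes than all 3. Peaks numbered 66.2 per 100 genes in ecd1 discs and 58.5 in control discs on X. The autosomal arms had between 46.8 and 56.7 ecd1 peaks and between 44.1 and 51.2 control peaks per 100 genes when taken whole, and between 46.5 and 55.5 ecd1 and between 43.7 and 49.8 control peaks when trimmed. The median gap between neighbouring stretches of peaks, both lists merged, was 3.42 kb on X and between 4.01 and 4.07 kb on the other arms.

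Along X the peaks were spread unevenly. Over the 21 full bins of 1 Mb, counted from the end with the lowest coordinates, a bin held between 40 and 109 ecd1 peaks with a median of 82, and between 29 and 99 control peaks with a median of 71. The ecd1 list was densest in bin 3, with 109 ecd1 and 80 control peaks, and the control list in bin 1, with 92 ecd1 and 99 control peaks. Bin 21 was lowest in both, with 40 ecd1 and 29 control peaks. Bins 13 and 15 were also sparse, with 52 ecd1 and 45 control peaks in bin 13 and 50 ecd1 and 54 control peaks in bin 15. More ecd1 than control peaks stood in 18 of the full bins and more control peaks in 3 of them. The difference was widest in bin 3, where 68.8% of the ecd1 and 91.2% of the control peaks overlapped the other list. Gene number followed the peaks only loosely: bin 4 had 70 genes and 82 ecd1 peaks, whereas bin 16 had 170 genes and 85 ecd1 peaks.

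**Figure D1:**
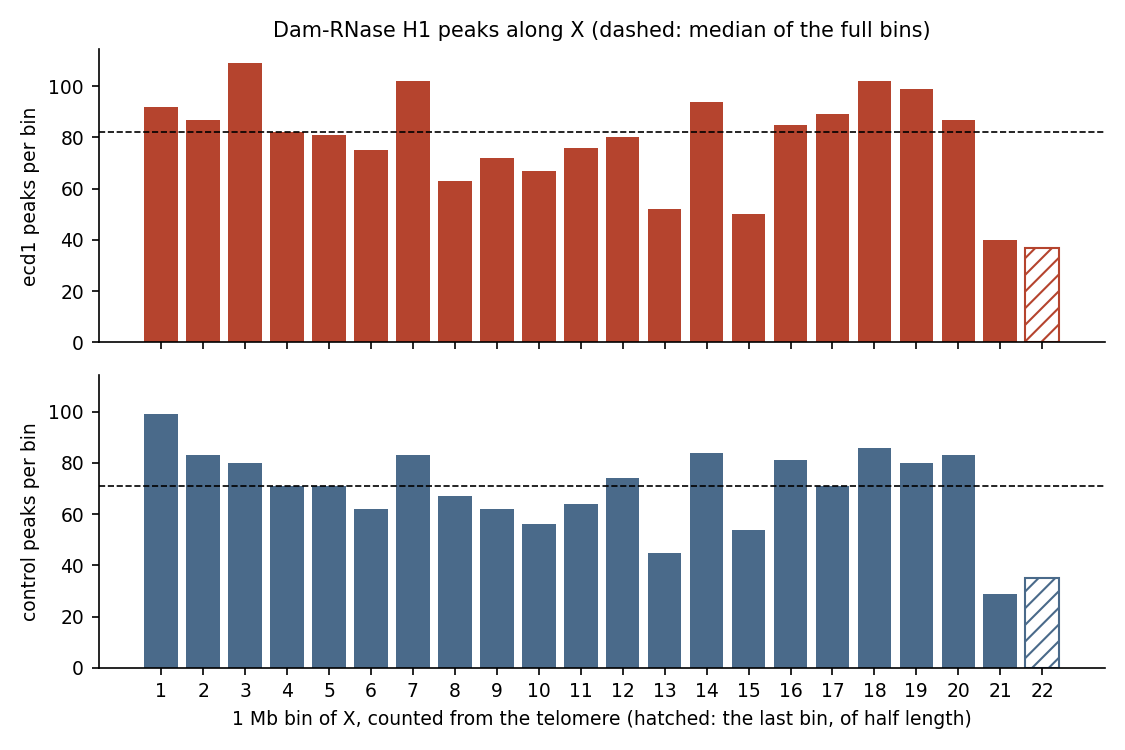
Number of Dam-RNase H1 peaks in each 1 Mb bin of X, ecd1 above and control below, with bins counted from the end with the lowest coordinates, dashed lines at the medians of the 21 full bins (82 ecd1 and 71 control peaks) and the last, shorter bin hatched. Both lists are low in bins 13, 15 and 21, and bin 3 has 109 ecd1 but 80 control peaks.

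Stretches without any peak were found on X as well. The longest ran over 199 kb (X:4707907-4907126) and held *Klf15*, a zinc finger gene, among others. The next, of 192 kb (X:5103814-5295872), held *rg* (*rugose*), an A-kinase anchor protein gene. One of 178 kb (X:19924268-20102213) held the run of genes from *CG45489* to *CG45494* and the dopamine receptor gene *Dop2R*. The potassium channel gene *Sh* (*Shaker*), 139 kb long, lay in one of 169 kb and had no peak in either genotype. In all, X had 70 gaps of more than 50 kb over 21.5 Mb, against 74 on 2L (23.4 Mb), 99 on 3L (28.0 Mb) and 103 on 3R (32.1 Mb). These counts were not scaled to the unequal lengths, so they do not show X to be poorer in long gaps.

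Peaks on X seldom lay away from annotated genes. The midpoint was inside a gene span in 61.7% of the ecd1 and 59.6% of the control peaks, and within 500 bp of one end of a span in 30.6% of the ecd1 and 31.9% of the control peaks. Neither held for 133 ecd1 peaks (7.73%) and 129 control peaks (8.49%), while 17.1% of the bases of X lay in such positions. On 2L, 17.3% of the ecd1 and 19.6% of the control peaks lay outside genes, on 3L 24.4% and 26.9%, and on 3R 15.5% and 16.9%, where 26.2%, 30.4% and 22.2% of the bases did. The bases within 500 bp of a gene end made up 17.0% of X, so peaks were 1.79 times (ecd1) and 1.87 times (control) as frequent there as bases. The whole autosomal arms had ratios between 1.48 and 1.85 for ecd1 and between 1.58 and 1.94 for control. On the trimmed arms 2L, 3L and 3R the ratios were 1.43, 1.51 and 1.66 for ecd1 and 1.53, 1.46 and 1.74 for control, so X then lay above all 3.

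A few long annotated spans weighed on these shares. On X 75 genes (2.89%) spanned more than 50 kb, against 53 on 2L (1.51%), 65 on 3L (1.87%) and 64 on 3R (1.51%). One of them, *CG32816*, is annotated across the whole achaete-scute complex. Without the long spans, 23.8% of the ecd1 and 27.0% of the control peaks of X lay outside genes, as did 44.4% of its bases. The other arms then had between 27.0% and 36.3% of the ecd1 peaks and between 28.9% and 38.9% of the control peaks outside genes, with 43.1% to 50.3% of the bases. The share on X stayed below each of the other arms in both genotypes, by a smaller margin.

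The height of a peak is the authors' score, whose scale and log base are not stated, and the lists of the genotypes were made separately. On X the median height was 1.07 (interval 1.03 to 1.09, quartiles 0.76 and 1.46) in the ecd1 list and 0.85 (interval 0.83 to 0.87, quartiles 0.62 and 1.13) in the control list. The autosomal medians were 1.14 on 2L, 1.14 on 3L and 1.08 on 3R for ecd1, and 0.89, 0.93 and 0.88 for control. X therefore had the lowest median of the arms compared in either list, and both values lay within the intervals of 3R (1.05 to 1.10 for ecd1, 0.85 to 0.90 for control). The tall end of the distribution was thinner on X. A height of 2 or more was reached by 112 ecd1 peaks (6.51%) and 6 control peaks (0.395%) on X, against 7.74%, 9.32% and 7.40% of the ecd1 and 0.970%, 1.01% and 1.4% of the control peaks on 2L, 3L and 3R. The tallest X peak had 3.15 in the ecd1 list and 2.61 in the control list. Among the control peaks of the arms compared that last one was the tallest, as the other arms ended between 2.36 and 2.52, while their tallest ecd1 peaks had 3.23 to 3.89.

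Widths ran the other way between the genotypes. The median width on X was 1376 bp (interval 1319 to 1421) for ecd1 and 1493.5 bp (interval 1427 to 1582) for control. On the other arms it was between 1349 and 1435 bp for ecd1 and between 1551 and 1653 bp for control. Peaks of more than 5 kb were fewer on X than on any of the arms compared: 55 ecd1 peaks (3.20%) and 65 control peaks (4.28%), where the other arms had 3.84% to 4.97% of ecd1 and 6.07% to 6.62% of control peaks.

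**Figure D2:**
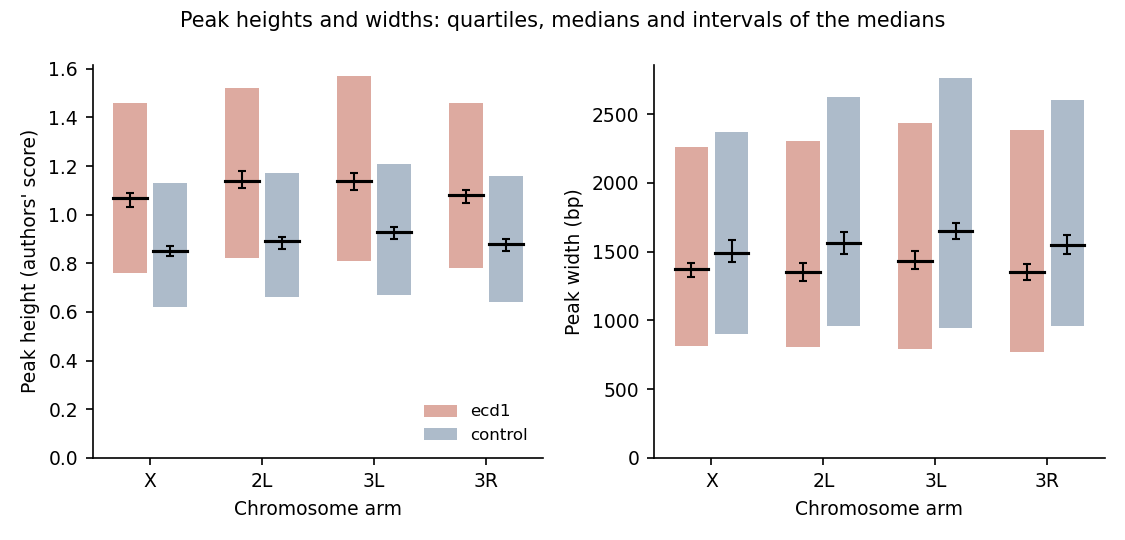
Peak height (left, the authors' score) and peak width (right, bp) by chromosome arm, ecd1 left of control in each pair; bars span the quartiles, black lines are medians and error bars their 95% order-statistic intervals. On X the median height is 1.07 in ecd1 and 0.85 in control, and the median width 1376 bp in ecd1 and 1493.5 bp in control.

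Most X peaks were found in both genotypes. In the ecd1 list, 1312 peaks (76.2%, interval 74.2 to 78.2) met a control peak over at least 1 bp, where the share over all arms was 76.8%. In the control list, 1299 peaks (85.5%, interval 83.6 to 87.1) did so with an ecd1 peak, where the share over all arms was 83.5%. The ecd1 share was 79.1% on 2L, 79.0% on 3L and 74.0% on 3R, and the control share was 81.2%, 84.6% and 84.1%. The X intervals met those of 3L and 3R in both lists and missed that of 2L (79.2 to 83.0) for control. In bases, 2.24 Mb of X was shared, which is 74.3% of the ecd1 and 77.2% of the control peak bases. When each peak of a pair had to be covered to at least 50%, 999 X peaks were shared, 58.0% of the ecd1 and 65.7% of the control list.

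Peaks found in 1 genotype only were low and narrow on X, as on the other arms compared. Without an overlap stood 409 ecd1 and 221 control peaks of X. Their median heights were 0.72 for ecd1 and 0.62 for control, against 1.18 and 0.89 for the overlapping peaks. Their median widths were 791 bp for ecd1 and 1044 bp for control, against 1647 and 1623 bp for the overlapping ones. On 2L, 3L and 3R the median heights without an overlap were 0.72 to 0.76 for ecd1 and 0.61 to 0.65 for control. Overlapping peaks there had 1.22 to 1.27 and 0.93 to 1.00. The median widths on these arms were 746.5 to 817 bp for ecd1 and 1166 to 1232 bp for control without an overlap. With an overlap they were 1572.5 to 1666 bp and 1657 to 1794 bp. The tallest ecd1 peak without a control peak lay inside *Ns3*, a nucleostemin-family GTPase gene (X:1462327-1463413), with a height of 2.10. The next lay at the ends of *CG32572* and *CG34325* (X:16719790-16721982, height 1.83) and inside *hiw* (*highwire*), a ubiquitin ligase gene best known from synapses (X:15024405-15024794, height 1.82). The tallest control peak without an ecd1 peak lay inside *Ten-a*, a teneurin gene of cell adhesion (X:12210653-12211148, height 1.61), and a second one of that gene at X:12205765-12207527 had 1.42. Among those between them in rank was *CG12075* (1.53).

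**Figure D3:**
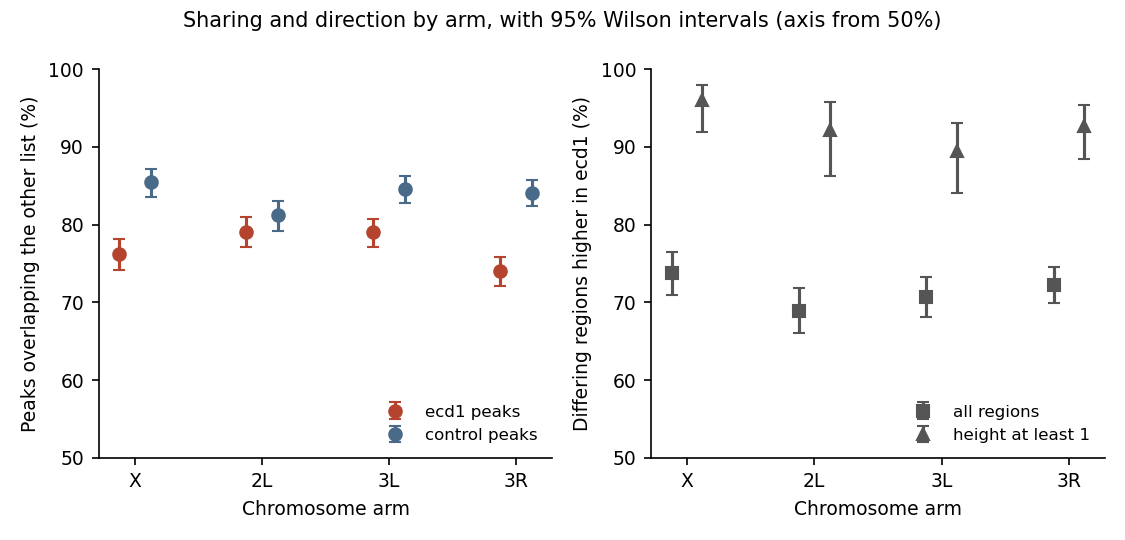
Left, percent of peaks that overlap a peak of the other genotype's list, ecd1 left of control for each chromosome arm; right, percent of the differing regions in the authors' deposited tables that were higher in ecd1, for all regions and for those with a height of at least 1. Error bars are 95% Wilson intervals and the axes start at 50%; on X the values are 76.2% (ecd1) and 85.5% (control) at left, and 73.8% and 96.0% at right.

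Where start and end were identical in the 2 lists, heights could be set side by side at fixed positions. X had 316 of them. The ecd1 height was the larger in 268 (84.8%, interval 80.4 to 88.3) and the control height in 48, where over all arms 85.0% were taller in ecd1. The median heights at these X peaks were 1.27 in ecd1 and 0.97 in control, with a median difference of 0.28 (quartiles 0.08 and 0.53). The median difference was 0.29 on 2L, 0.28 on 3L and 0.29 on 3R, so the shift on X was of the size seen on the other arms.

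Of the 10 largest differences with the taller peak in ecd1, the first was at the ends of *meso18E* and *lncRNA:CR44889* (X:19712057-19713558), where the peak had a height of 2.04 in ecd1 and 0.48 in control. Inside *mamo*, a zinc finger gene of the BTB family (X:13885286-13886221), the heights were 2.88 in ecd1 and 1.33 in control. At *CG1986* (X:9907404-9909831) they were 2.03 in ecd1 and 0.74 in control, and inside *CG14207*, a small heat shock protein gene, listed with *Shawn* (X:19607746-19608526), 2.29 in ecd1 and 1.07 in control. *COX6B*, which encodes a subunit of cytochrome c oxidase, had 1.90 in ecd1 and 0.74 in control (X:19740655-19742566). *CG1764* (X:13301573-13302410) had 1.77 in ecd1 and 0.58 in control. The peaks at *Shmt* and *Chpf*, described below with the tallest, also ranked among the 10, with differences of 1.36 and 1.24. The authors' deposited tables hold no differing region that overlaps the *mamo*, *COX6B*, *CG1764* or *Chpf* peak, while the others named here overlapped one higher in ecd1. In the other direction differences were smaller. The peak inside *Cht6*, a chitinase gene (X:10045556-10047577), had 1.30 in ecd1 and 1.92 in control. At *mh* (*maternal haploid*), a metalloprotease gene (X:15474621-15476025), the heights were 0.55 in ecd1 and 1.06 in control. Inside *Nrg* (*neuroglian*), an adhesion gene of septate junctions and axons, they were 1.04 in ecd1 and 1.47 in control (X:8520024-8520692). A peak over 3 tRNA genes for arginine and serine (X:14014323-14015677) had 0.83 in ecd1 and 1.20 in control, and near-identical tRNA copies leave the placing of reads there uncertain. In the authors' deposited tables the *mh* and *Nrg* peaks overlapped a region higher in control, and the *Cht6* and tRNA peaks overlapped no differing region.

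**Figure D4:**
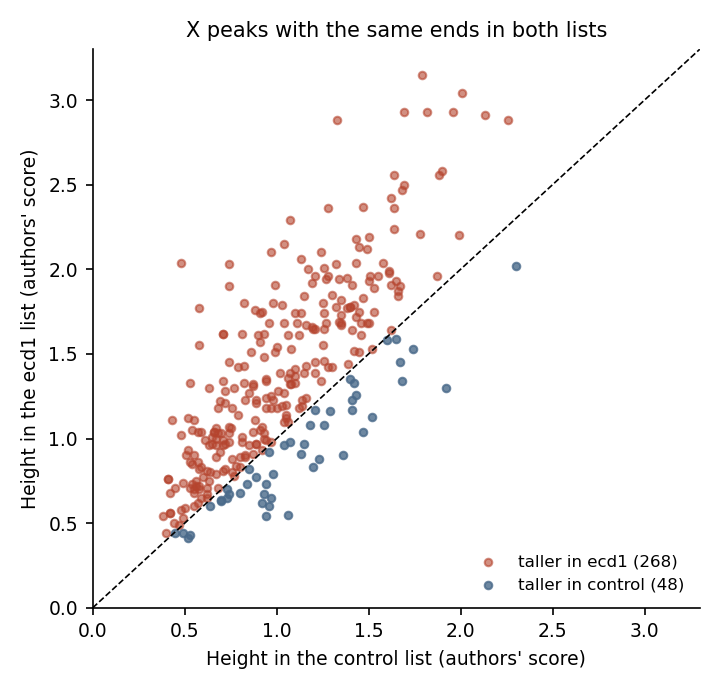
Height in ecd1 (vertical axis) against height in control (horizontal axis), both the authors' score, for the 316 X peaks whose ends were identical in the 2 lists; the dashed line marks equal heights. Of these peaks, 268 lie above the line, taller in ecd1, and 48 below it, taller in control.

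The tallest X peaks of each genotype overlapped a peak of the other. In ecd1 discs the first lay at one end of *Shmt* (named *CG3011* in the authors' gene table), the serine hydroxymethyltransferase gene of one-carbon metabolism (X:5915353-5916822), with a height of 3.15 in ecd1 and 1.79 in control. The second, inside *ec* (*echinus*), a gene of programmed cell death in the pupal eye (X:3840784-3841457), had 3.08 in ecd1 and 1.31 in control. The third, inside *CG43759* (X:18970134-18976504), had 3.04 in ecd1 and 2.01 in control. Next came *D2hgdh*, the D-2-hydroxyglutarate dehydrogenase gene (X:2140647-2142454), with 3.03 in ecd1 and 1.61 in control, and *CG32694* (X:9995667-9997588) with 2.93 in ecd1 and 1.96 in control. The peak at one end of *Chpf*, listed for the ferritin gene *Fer3HCH* and its neighbours (X:13110778-13112529), had 2.93 in ecd1 and 1.69 in control. The wing vein gene *cv* (*crossveinless*), whose product binds BMP ligands, had 2.91 in ecd1 and 2.13 in control at its end (X:5689887-5691226).

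In control discs the tallest peak lay at one end of *CG5966*, a predicted lipase gene (X:5992409-5993363), with 1.98 in ecd1 and 2.61 in control. It was followed by *nej*, the CBP histone acetyltransferase gene (X:9686102-9688317), with 2.02 in ecd1 and 2.30 in control. The peak inside *lncRNA:CR44833* (X:5024876-5026569) had 2.88 in ecd1 and 2.26 in control, and one beside *ovo*, the zinc finger gene of epidermal hairs and the female germline (X:5042651-5046004), had 2.20 in ecd1 and 1.99 in control. *Cph*, a zinc finger gene (X:7209288-7209868), had 1.56 in ecd1 and 2.08 in control. *eag*, a potassium channel gene (X:14992116-14993850), had 1.45 in ecd1 and 1.98 in control. *Mnt*, which encodes the antagonist of Myc (X:3685270-3687930), had 2.69 in ecd1 and 1.98 in control. The peaks of *cv*, *CG43759*, *CG32694* and *lncRNA:CR44833* were thus among the 10 tallest of both lists, and *CG5966*, *nej*, *Cph* and *eag* were taller in control than in ecd1.

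The widest ecd1 peak of X, of 13580 bp, lay inside *Bx* (*Beadex*), the LIM-only gene that limits Apterous activity in the wing (X:18535022-18548601, height 1.97), and 2 control peaks met it. The widest control peak, of 15828 bp, lay inside *Tis11*, an mRNA decay gene (X:12660095-12675922, height 1.20), and 2 ecd1 peaks met it. The ecd1 peak listed for the most genes served *RpS19a*, *mthl1*, *SNRPG* and 3 more, and had a height of 1.28 in ecd1 and 1.10 in control (X:16639518-16642000 in ecd1). *SNRPG* encodes a core protein of the spliceosomal particles.

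For the comparison of the genotypes, the authors' deposited tables give 1 region per gene and direction, so a region that serves no gene is absent from them. On X these tables held 706 distinct regions higher in ecd1 and 251 higher in control. The share higher in ecd1 was 73.8% (interval 70.9 to 76.5) on X, against 71.5% over all arms, 68.9% on 2L, 70.7% on 3L and 72.2% on 3R; the interval of X overlapped those of the 3 arms. Per Mb, the authors' deposited tables give X 32.8 regions higher in ecd1 and 11.7 higher in control, and the whole autosomal arms between 28.8 and 31.9 of the first kind and between 12.1 and 13 of the second. On the trimmed arms, in the authors' deposited tables, 2L, 3L and 3R had 30.3, 35.6 and 36.4 of the first kind and 13.2, 14.2 and 13.7 of the second, so X was then below 3L and 3R in the first. Among regions with a height of at least 1 in the authors' deposited tables, 167 were higher in ecd1 and 7 higher in control on X (96.0%, interval 91.9 to 98.0), against 92.2% on 2L, 89.4% on 3L and 92.7% on 3R. Of the X regions higher in ecd1, 91.6% overlapped an ecd1 peak and 66.4% a control peak, against 89.5% and 64.0% over all arms. Of those higher in control, 43% overlapped an ecd1 peak and 78.1% a control peak, against 44.8% and 76.4% over all arms.

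In the authors' deposited table the 10 largest X regions higher in ecd1 had values between 1.68 and 2.40. This value is the peak height given for the region, and how it was formed is not stated in the sources used here. It need not equal the difference between the heights of the 2 lists. The first region, inside *CG6398* (X:17833852-17834433), had 2.40 in the authors' deposited table, where the peaks had 2.00 in ecd1 and 1.44 in control. The one at the end of *N*, the Notch receptor gene (X:3134775-3135849), had a value of 2.16 in the authors' deposited table, and the peaks there had heights of 2.38 in ecd1 and 1.54 in control. A region inside *shf* (*shifted*), whose product lets Hedgehog spread, was listed for *COQ7* (X:6777661-6779042) with a value of 2.09 in the authors' deposited table. The region inside *br* (*broad*), an early ecdysone response gene (X:1612881-1613899), had 1.79 in the authors' deposited table. The one inside *z* (*zeste*) and *boi*, a co-receptor gene for Hedgehog (X:2449297-2450272), had 1.71 in the authors' deposited table. The other 5 of the 10 were, in the authors' deposited table, one at the end of *CG15601* (X:15710099-15711148) with 2.14, one inside *CG3168* (X:6730424-6731588) with 1.95, and one at the ends of *CG32572* and *CG34325* (X:16721025-16721982) with 1.84. A region inside the mucin gene *Mur2B*, listed for *snmRNA:400* (X:1560091-1562565), had 1.70, and one inside *Spase25*, a signal peptidase subunit gene (X:11485587-11486015), had 1.68 in the authors' deposited table. Neither list had a peak at the *Spase25* region.

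Regions higher in control reached smaller values. In the authors' deposited table the first on X was at the end of *nej* (X:9686896-9688317), with a value of 1.35. Next came a region 197 bp from *CG12177* (X:13680697-13682038) with 1.26 and one 1084 bp from *Ten-a* (X:12336298-12337768) with 1.18 in the authors' deposited table. *Clic*, a chloride channel gene (X:13813710-13814510), had 1.14 and *eag* (X:14993480-14993850) had 1.04 in the authors' deposited table. A region of the *Stellate* repeats (X:14054941-14055886), listed for *Ste:CG33240* and *Ste:CG33241*, had 0.98 in the authors' deposited table, and near-identical copies make its place uncertain.

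Seen by gene, X had the largest share with a peak among the arms compared. The authors' gene tables list a peak for 1455 of the 2599 annotated X genes in ecd1 discs (56.0%, interval 54.1 to 57.9) and for 1359 in control discs (52.3%, interval 50.4 to 54.2), against 49.2% for ecd1 and 46.6% for control over all arms. The ecd1 share was 43.1% on 2L, 49.9% on 3L and 50.1% on 3R, and the control share was 42.4%, 47.3% and 46.3%. Both genotypes had a peak at 1224 X genes, ecd1 alone at 231 and control alone at 135. Among protein-coding X genes the shares were 58.9% in ecd1 and 54.3% in control, and among lncRNA genes 44.5% in ecd1 and 44.1% in control. When a gene counted only if its span met a peak, X had 49.1% in ecd1 and 44.9% in control, and the 3 autosomal arms together 39.8% and 38.2%. Genes on X were also longer, with a median span of 2.08 kb against 1.49 to 1.78 kb on the other arms. The part of gene length in the gene shares was not tested.

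By gene, the authors' deposited tables hold a region higher in ecd1 for 1041 X genes (40.1%), against 33.9% over all arms and 28.0%, 34.5% and 35.5% on 2L, 3L and 3R. A region higher in control was given for 372 X genes (14.3%), against 13.8% over all arms and 12.7%, 14.3% and 14.3% on those arms. Both kinds of region were given for 206 X genes.

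In windows of 100 kb the ecd1 list was densest at X:400001-500000. This window takes in part of the achaete-scute complex, without *ac* and *sc*, and runs on beyond *ase*. It held 24 ecd1 and 21 control peaks, where the median over 215 windows was 8 for ecd1 and 7 for control. In the control list X:6600001-6700000 had 21 peaks as well. In windows of 200 kb the ecd1 list was densest at X:19600001-19800000, with 37 ecd1 and 31 control peaks, and the control list at X:6600001-6800000, with 36 ecd1 and 33 control peaks; X:400001-600000, with 28 ecd1 and 24 control peaks, ranked lower. The complex holds the proneural genes *ac*, *sc*, *l(1)sc* and *ase*, basic helix-loop-helix genes that start bristle and neuroblast fates, and is known for enhancers scattered between them. From *y* to *ase* (X:356509-463176, 107 kb) there were 27 ecd1 and 27 control peaks, of which 25 in each list overlapped, and they covered 45.8% in ecd1 and 45.3% in control. The tallest of them, between *l(1)sc* and *Pgcl* (X:429578-430192 in ecd1), had a height of 2.23 in ecd1 and 1.75 in control. The peak over *sc* had 1.82 in ecd1, and the taller of 2 control peaks there had 1.63. The median height over the complex was 1.09 in ecd1 and 0.90 in control. The authors' deposited tables give 7 regions of the complex that were higher in ecd1, with values between 0.62 and 1.22, and 1 that was higher in control, at 0.41.

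The genes *upd1*, *upd2* and *upd3*, which encode the ligands of the JAK/STAT receptor, are neighbours on X (X:18240654-18309291, 68.6 kb). That stretch had 21 ecd1 and 16 control peaks, which covered 53.2% in ecd1 and 32.8% in control. Heights ranged from 0.46 to 2.40 in ecd1 with a median of 1.21, and from 0.27 to 1.53 in control with a median of 0.84. Shared with the other list were 14 of the ecd1 and 15 of the control peaks. The tallest ecd1 peaks lay between *upd2* and *upd3*: one inside *lncRNA:CR45613* (X:18256863-18257793) had 2.40, over a control peak of 1.14, and a wide one beside *CG15059* (X:18262443-18269103) had 2.36, over a control peak of 1.53. At *upd1* the heights were 1.39 in ecd1 and 0.83 in control, and at *upd2* 1.52 in ecd1 and 0.67 in control. The authors' deposited tables give regions higher in ecd1 at *upd1* (1.20), *upd2* (1.22) and *upd3* (0.88), 6 in the whole stretch, and 3 regions higher in control, at most 0.78.

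**Figure D5:**
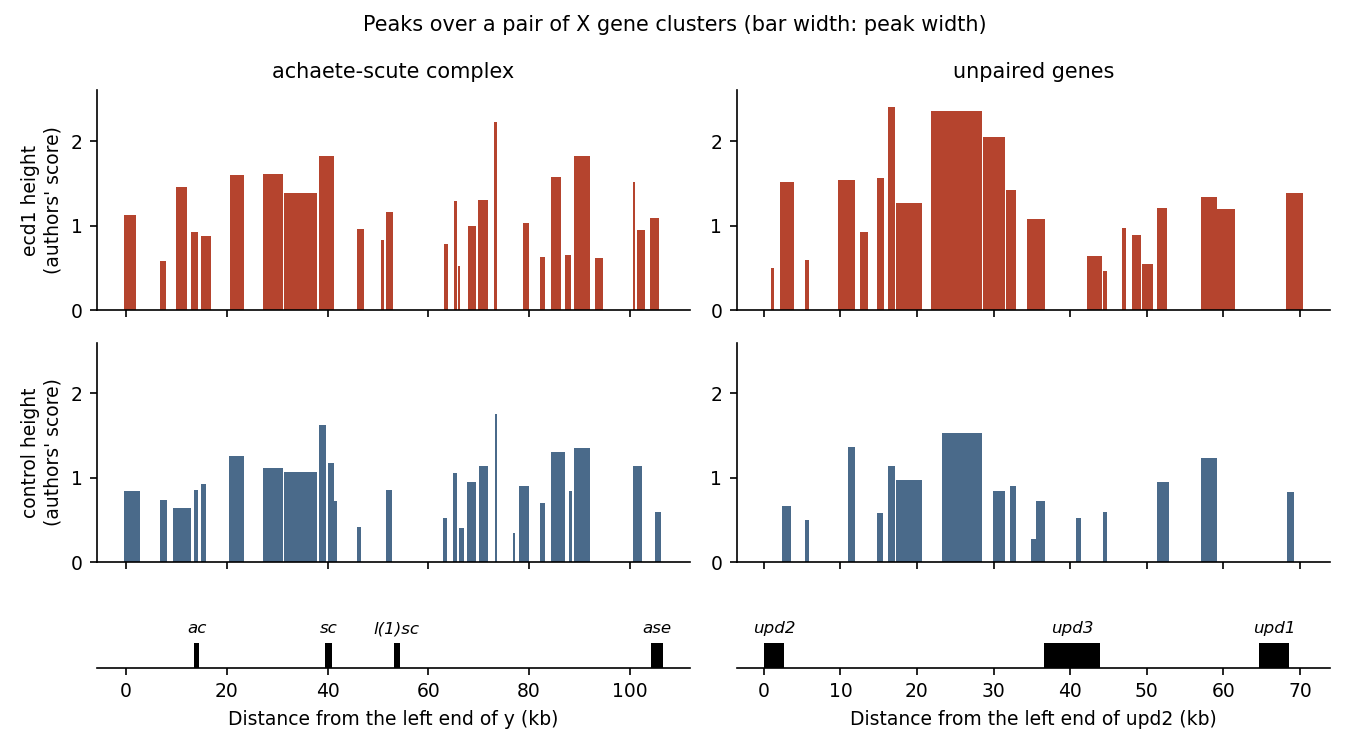
Peak height (the authors' score) in ecd1 (top) and control (middle) over the achaete-scute complex (left) and the *upd* genes (right), against the distance in kb from the left end of *y* and of *upd2*; each bar spans 1 peak and black boxes are gene spans. The complex has 27 peaks in each list, while the *upd* stretch has 21 ecd1 and 16 control peaks with the tallest at 2.40 in ecd1 and 1.53 in control.

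A list of proneural and sensory genes had 10 members on X. Of these, 9 had a listed peak in ecd1 and 8 in control, with median listed heights of 0.95 in ecd1 and 0.89 in control. The list included *Pgcl* (*pcl*), which lies in the achaete-scute complex but is not one of its proneural genes named above. Its listed peaks, counted here, had 1.58 in ecd1 and 1.30 in control. Over all X genes, 56.0% had a listed peak in ecd1 and 52.3% in control. The authors' deposited tables give 7 of the 10 a region higher in ecd1 and 2 one higher in control, where 40.1% and 14.3% of all X genes had one. *B-H1*, one of the paired *Bar* homeobox genes of the notum, had a peak of 1.48 in ecd1 and none in control, and *B-H2* a tallest peak of 1.26 in ecd1 and 0.59 in control. *vnd*, a homeobox gene of the ventral nervous system, had a tallest peak of 0.93 in ecd1 (X:593636-594462) and, at another place, 0.77 in control (X:583716-586595). The authors' deposited tables give it a region higher in ecd1 (1.00) within the first interval and one higher in control (0.50) within the second. *oc* (*orthodenticle*), the homeobox gene of the head, had no peak in either list.

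Other dense stretches held single regulators or runs of short genes. *bi* (*optomotor-blind*), the T-box gene of the central wing, had 16 ecd1 and 14 control peaks over 72.8 kb (X:4412856-4485647), all of them shared, with heights up to 2.16 in ecd1 and 1.56 in control. The window around it held 2 annotated genes, so its 21 ecd1 and 19 control peaks belonged to few genes. The window X:6600001-6700000, with *Cdc7*, a replication kinase gene, and *Pink1*, a mitochondrial kinase gene, held 17 genes with 22 ecd1 and 21 control peaks. The window X:19600001-19700000, with *Zw* (glucose-6-phosphate dehydrogenase) and *Mer* (the Merlin tumour suppressor), held 29 genes with 20 ecd1 and 16 control peaks. At *br* the control list had more peaks, with 7 in ecd1 and 11 in control over 89.7 kb (X:1575132-1664869), and heights up to 2.50 in ecd1 and 1.88 in control. *ct* (*cut*), the homeobox gene of the wing margin, was sparse for its 70.4 kb, with 3 ecd1 and 4 control peaks that covered 3.22% in ecd1 and 5.70% in control.

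A list of 8 genes covered the counting and compensation of X. *Sxl* (X:7074550-7098053) had 2 peaks in each list, the taller with a height of 2.43 in ecd1 and 1.67 in control. In the authors' deposited tables it had 1.13 for a region higher in ecd1 and 0.36 for one higher in control. The peak in *lncRNA:roX1* (X:3857230-3862697) had 1.17 in ecd1 and 0.89 in control, and the one at *lncRNA:roX2* (X:11579065-11580432) had 1.16 in ecd1 and 0.85 in control. In the authors' deposited tables the interval of the ecd1 peak in *lncRNA:roX1* (X:3859045-3859482) was nevertheless higher in control, at 0.56. A region 132 bp outside that gene (X:3855166-3857098) was higher in ecd1, at 0.65 in the authors' deposited table. *lncRNA:roX2* had 0.53 there for a region higher in ecd1. The X-counting genes differed among themselves: *sc* had a tallest peak of 1.82 in ecd1 and 1.63 in control and *upd1* one of 1.39 in ecd1 and 0.83 in control, while *sisA* and *run* had no peak in either list. The acetyltransferase gene *mof* had none either. Of the 8 genes, 5 had a listed peak in each genotype, beside 56.0% (ecd1) and 52.3% (control) of all X genes. The authors' deposited tables give 5 of them a region higher in ecd1 and 2 one higher in control, beside 40.1% and 14.3% of all X genes.

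Genes of wing patterning and adhesion on X were nearly all listed. Of 24 matched members, 22 had a peak in ecd1 and 22 in control, where 56.0% of X genes had one in ecd1 and 52.3% in control. The median listed height was 1.98 in ecd1 and 1.29 in control, against 1.21 and 0.93 over all listed X genes. The authors' deposited tables give 20 of them a region higher in ecd1 and 12 one higher in control, 11 of them both, where 40.1% and 14.3% of X genes had one. *N* had 11 ecd1 and 9 control peaks in its span. *sgg*, the GSK3 kinase gene of Wnt signalling, had a tallest peak of 2.43 in ecd1 (X:2659440-2660100) and, at another place, 1.06 in control (X:2632995-2634016). The authors' deposited tables give the first interval as higher in ecd1 (1.64) and the second as higher in control (0.74). *fz4*, a Wnt receptor gene, had a tallest peak of 2.04 in ecd1 and 1.65 in control. *arm*, the beta-catenin gene, went the other way, with a tallest peak of 1.01 in ecd1 and 1.41 in control and no differing region. *sd* (*scalloped*), the TEAD partner of Yorkie and Vestigial, had 1.85 in ecd1 and 1.48 in control. Among the integrin subunits, *mew* had 2.47 in ecd1 and 1.68 in control, *if* 2.22 and 1.72, and *mys* 0.83 and 0.62. The Wnt effector gene *dsh* and the Hedgehog kinase gene *fu* had no peak in either list. These genes are long, up to 394 kb for the adhesion gene *kirre*, which held 25 ecd1 and 27 control peaks.

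The JAK/STAT and JNK genes on X all had a peak in both genotypes, 8 of 8, and the authors' deposited tables give all 8 a region higher in ecd1 and *upd3* alone one higher in control as well. Of all X genes, 56.0% had a peak in ecd1 and 52.3% in control, and the authors' deposited tables give 40.1% a region higher in ecd1 and 14.3% one higher in control. *dome*, the receptor gene, had a tallest peak of 1.5 in ecd1 and 1.12 in control, and *hop*, the JAK kinase gene, 0.85 in ecd1 and 0.46 in control. A wide peak with a height of 2.00 in ecd1 and 1.44 in control overlapped 1 end of *Socs16D*, a SOCS-box gene. It ran on to *CG6398* (X:17826738-17837911 in ecd1). The control peak listed for *Socs16D* was another one, of 0.74 (X:17819864-17823140). Its region higher in ecd1 lay 310 bp outside the gene. *wgn* (*wengen*), a receptor gene for the TNF ligand Eiger, had 2.15 in ecd1 (X:18626994-18628919) and 1.27 in control at a neighbouring place (X:18628997-18637102). At the first place the control peak had 1.12. *hep* (*hemipterous*), the gene of the kinase that activates JNK, differed, since its tallest peak (X:13089300-13091269) had 0.88 in ecd1 and 1.23 in control. The authors' deposited table gives it a region higher in ecd1 (0.37) elsewhere in the gene (X:13082674-13083075).

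Ecdysone genes were mixed. *br* is described above. *usp*, the partner gene of the ecdysone receptor, had a tallest peak of 0.85 in ecd1 and 0.98 in control, and *Hr4*, a nuclear receptor gene, 1.42 in ecd1 and 1.59 in control. *Cyp18a1*, whose enzyme inactivates ecdysone, had 1.30 in ecd1 and 1.10 in control. The glue gene *Sgs4* of the salivary gland had no peak. Of 6 matched members, 5 had a peak in each list, where 56.0% of X genes did in ecd1 and 52.3% in control. The authors' deposited tables give 3 of these 6 a region higher in ecd1 and 2 one higher in control, where 40.1% and 14.3% of X genes had one.

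Among 14 genes of chromatin and transcription, 10 had a listed peak in each genotype, against 56.0% (ecd1) and 52.3% (control) of X genes. For 6 of them the authors' deposited tables give a region higher in ecd1 and for 2 one higher in control, against 40.1% and 14.3% of X genes. The Polycomb gene *ph-p* had a tallest peak of 2.24 in ecd1 and 1.62 in control, and *ph-d*, its tandem duplicate, 1.47 in ecd1 and 1.23 in control; reads from the duplicates may have been shared between them. *wapl*, which releases cohesin, had 1.63 in ecd1 and 0.68 in control. *fs(1)h*, the BET protein gene, had no ecd1 peak in its span and 2 control peaks of at most 0.62, and yet the authors' deposited table lists for it a region higher in ecd1, of 0.41. Growth genes included *Myc*, with 4 peaks in each list and a tallest of 1.44 in ecd1 and 0.96 in control, and *raptor*, the TORC1 subunit gene, with 1.51 in ecd1 and 0.74 in control. The tallest *Myc* peaks lay at different places, X:3372920-3373880 in ecd1 and X:3375147-3376366 in control, and at the latter the ecd1 peak had 1.05. *Cdk7* had a peak of 1.45 in ecd1 and none in control. All 8 growth genes, with *S6kII* beyond the limit, had a listed peak in ecd1 and 7 had one in control, where 56.0% and 52.3% of X genes did. The authors' deposited tables give 6 of the growth genes a region higher in ecd1 and 2 one higher in control, where 40.1% and 14.3% of X genes had one.

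Of 14 ribosomal protein genes on X, 9 had a listed peak in ecd1 and 9 in control, with median listed heights of 1.28 in ecd1 and 1.03 in control; of all X genes, 56.0% had one in ecd1 and 52.3% in control. The authors' deposited tables give 3 of these genes a region higher in ecd1 and 2 others one higher in control, beside 40.1% and 14.3% of all X genes. *RpS15Aa* had a tallest peak of 1.91 in ecd1 and 1.34 in control, *RpL35* one of 1.65 in ecd1 and 1.21 in control. *RpL36* had none in ecd1 and one of 0.50 in control. *RpS14a* and *RpS14b* are neighbouring copies. A peak of 1.69 was listed for *RpS14b* in ecd1 alone (X:7935724-7938731), and it overlapped the end of that gene (X:7934898-7935792) and ran on beyond it.

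Genes known from other tissues were counted as well. Of all X genes, 56.0% had a listed peak in ecd1 and 52.3% in control, and the authors' deposited tables give 40.1% a region higher in ecd1 and 14.3% one higher in control. Of 14 neuronal genes on X, 12 had a listed peak in ecd1 and 11 in control, with median listed heights of 0.94 in ecd1 and 1.02 in control. The authors' deposited tables give 7 of them a region higher in ecd1 and 5 one higher in control. *para*, the sodium channel gene, had a tallest peak of 1.04 in ecd1 and 1.45 in control, and *elav*, the pan-neuronal RNA-binding protein gene, 1.32 in ecd1 and 1.49 in control. In others the tallest peak was taller in ecd1, such as the calcium channel gene *cac* with 1.62 in ecd1 and 1.02 in control. The microtubule protein gene *futsch* had 1.41 in ecd1 (X:1450857-1451523) and 0.86 in control at another place (X:1410844-1413250), where the ecd1 peak had 0.98. The gap junction gene *shakB* had 0.94 in ecd1 (X:20790669-20793002) and 0.54 in control, again at another place (X:20794052-20794799). The authors' deposited tables give that control interval as higher in control (0.54) and X:20790669-20792596 as higher in ecd1 (0.87). *Appl* and *Sh* had no peak. Of 11 genes of egg shell, yolk and germline, 3 had a listed peak in ecd1 and 1 in control, which was *ovo*. For 2 of the 11 the authors' deposited tables give a region higher in ecd1 and for 1 one higher in control. A single ecd1 peak of 0.49 at *Cp36* was the only peak in the chorion cluster at X:8470888-8483311, and the yolk genes *Yp1* and *Yp2* (X:10050951-10055498) had none. Of the muscle genes *wupA* and *up*, *wupA* had a tallest peak of 1.11 in ecd1 and 0.87 in control and *up* had none. *w* (*white*), the eye pigment transporter gene, had 2 peaks in each list of at most 0.56 in ecd1 and 0.43 in control.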

How the data were processed

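Targeted DamID of Dam-RNase H1 was sequenced as paired 50 bp reads per the labels' protocols. Each peak's height is a score deposited by the authors, and its FDR, a q-value deposited by the authors, lies under 0.01. The authors' peak lists, gene tables (1 peak per gene) and difference tables (1 region per gene and direction) hold no value of a single library. Per the submitters' processing notes the build is BDGP6. Which aligner and peak caller were used, how Dam-only libraries entered and whether replicates were pooled is not given in the sources used here.

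Peaks were counted, intersected (at least 1 bp) and binned (1 Mb bins, 100 kb and 200 kb windows) in Python 3.11.15 with pandas 2.3.3 and numpy 2.4.6. The interval functions were tested on simulated data. Gene spans and names came from the RefSeq gene table of Release 6 plus ISO1 MT, which matched 99.5% of the ecd1 and 99.4% of the control gene names. It gives no strand, so either end of a span counted as an end. Symbols turned into dates by a spreadsheet, 3 of them on X, were restored by identifier. No test between genotypes was possible, because each has 1 list. The planned promoter sequences were not analysed here. The set of peaks, the gene lists and the named genes were chosen with earlier results of these data known. Genes were named when they held the 10 tallest peaks of a list, the peaks listed for most genes, the densest windows, the 10 largest differing regions or the largest same-end differences, or stood in a gene list. The widest peaks, the tallest peaks without overlap and the stretches without a peak were added after their values were seen. The list names *vs*, *phm*, *Ilk* and *fln* matched no X gene.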

Additional observations from a re-analysis of the deposited data

How the results depend on the processing

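The stricter FDR turned the order of the genotypes in peak number and in shared peaks. At an FDR under 0.001 there were 0.951 ecd1 peaks for each control peak of X, with a density of 45.7 ecd1 peaks per Mb. The median height was then 1.28 in ecd1 and 0.94 in control on X, and 1.31 and 1.01 on the autosomal arms. The median width was 1785.5 bp in ecd1 and 1800 bp in control on X, and 1787 and 1978.5 bp on the autosomal arms, and 76.0% of the ecd1 and 72.2% of the control peaks of X were shared. With trimmed arms the density ratio of X to the autosomal arms was 1.03 for ecd1 and 1.02 for control, and the ratio in differing regions per Mb that were higher in ecd1 turned to 0.958, against 1.09 with whole arms. A reciprocal overlap of 50% left 58.0% of ecd1 and 65.7% of control peaks shared. Counting genes by span gave 49.1% in ecd1 and 44.9% in control on X, and 39.8% and 38.2% on the autosomal arms. Differing regions were higher in ecd1 in 96.0% at heights of at least 1 and in 76.7% on called peaks. Without spans over 50 kb, an alternative chosen after seeing the data as were the trimmed arms for gene shares, peak positions and differing regions, 23.8% of ecd1 and 27.0% of control peaks of X lay outside genes, and 30.7% and 33.0% of the autosomal ones. The cause of these shifts was not tested. The other 30 of 56 values stayed within 1.5 times or within the interval of the reported value. Of the 10 tallest peaks of each list, 10 in ecd1 and 9 in control passed the stricter FDR. No paired analysis was possible because the files hold 1 list per genotype and no value of a library, and for the same reason no replicate could be left out. Library depth is unknown, so a place without a peak cannot be told from one below detection.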

Other observations

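On X the median heights of peaks near, inside and outside genes lay close together. Among ecd1 peaks the median height was 1.10 near a gene end (526 peaks), 1.04 inside a gene (1062 peaks) and 1.08 outside genes (133 peaks), and 81.7%, 73.3% and 78.2% of them overlapped a control peak. Among control peaks the median height was 0.83 near a gene end (485 peaks), 0.86 inside a gene (906 peaks) and 0.84 outside genes (129 peaks), and 86.6%, 85.2% and 82.9% of them overlapped an ecd1 peak. Ecd1 peaks inside genes, the largest of these classes, had the lowest of these shares and the narrowest median width, 1307 bp, where control peaks inside genes had 1581.5 bp. No test of these differences was run.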
